A study of Mus musculus with 7 samples.

Results

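The genes described here are those of the constitutive proteasome: the gene rows whose symbol begins with Psm, a letter from a to g and a number, leaving out the immune subunits Psmb8, Psmb9 and Psmb10. The rule takes 47 of the 32531 gene rows in the count files, and 46 of them passed the filter on low counts. The choice used symbols only and no measured value. Psmc3ip matches by its name but encodes a partner of the recombination machinery of meiosis, and Psme2b is a gene copy of Psme2, so counts are also given without them.

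The samples were midbrain from untreated adult control mice of the Stard8-TRAP line ES2342, in which the ribosomal protein Rpl10a carries an EGFP tag under regulatory sequence of Stard8. Tagged ribosomes were pulled from tissue homogenate with antibodies to EGFP, giving immunopurified RNA (IP, 3 libraries numbered 1, 2 and 4), and the RNA left behind was sequenced as unbound (4 libraries numbered 1 to 4). Both groups come from the same line, so there is no group without the tag, and the sex, the number of animals per library and any pooling are not stated in the labels. Where nothing says that libraries came from separate animals, p-values measure only the spread between these libraries.

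The proteasome is the large protease that degrades proteins marked with ubiquitin. Its 20S core is a barrel of alpha rings around beta rings, and 3 of the beta subunits cut peptides. The 19S regulatory particle caps the barrel: its base holds ATPases that unfold the substrate, and its lid removes ubiquitin. Other caps, called activators, bind the same alpha ring, and dedicated chaperones assemble the parts. In immune cells, and in many cells under interferon, Psmb8, Psmb9 and Psmb10 replace the 3 cutting subunits.

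Levels are given as CPM, counts scaled to a common library size with TMM correction, and differences as log2 fold changes of IP over unbound with their standard error (SE). Libraries held 52052340 to 76114634 counts in genes, where 3 counts correspond to 0.0376 to 0.059 CPM. Stard8, the driver of the tag, checked the labels with 388, 440 and 227 CPM in IP 1, 2 and 4 and between 3.51 and 4.89 CPM in the unbound libraries. All 10 endothelial, 9 pericyte and smooth muscle and 9 microglia and macrophage markers rose in IP, with summed levels of 1535 to 1859, 2754 to 4054 and 1188 to 1272 CPM in IP. The same sums were 13.3 to 20.2, 24.2 to 37.5 and 43.2 to 77.2 CPM in unbound. Of 8 astrocyte markers 5 passed as higher and all 8 had a log2 fold change above 0. Their sums were 1407 to 1971 CPM in IP and 688 to 1284 CPM in unbound. All 10 pan-neuronal and 8 oligodendrocyte markers fell, from sums of 13537 to 21414 and 5308 to 7223 CPM in unbound to 3503 to 7907 and 890.5 to 1664 CPM in IP. The 11 midbrain neuron identity genes, including Th, Slc6a3 and Tph2, were detected in every library (197 to 215 CPM summed in IP, 218 to 309 in unbound). Of these, Slc6a3, Slc6a4 and En2 passed as lower (27.3%, against 18.9% of all genes) and none as higher. In 8 of the 11 the log2 fold change lay below 0, with a median of -0.70. Of all these markers 1 was at 0 in 1 library, a pericyte and smooth muscle gene in unbound 1. In bulk samples, fewer cells of a type and less RNA per cell cannot be told apart.

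Most proteasome genes did not pass the test between the tagged ribosomes and the unbound RNA. Of the 46 tested members, 5 rose in IP and 3 fell (edgeR's quasi-likelihood test, Benjamini-Hochberg adjusted p under 0.05 over all genes), against 39.4% of all 17654 genes tested, or 20.5% higher and 18.9% lower. The risers were Psma8, Psme2b, Psmc3ip, Psme1 and Psme2, and the fallers were Psmc5, Psmd12 and Psme3. Without Psmc3ip and Psme2b the counts were 3 and 3 of 44. The median log2 fold change of the members was -0.08 and that of all genes tested -0.10. The 95% interval of the fold change lay within 2-fold in either direction for 26 members, against 18.7% of all genes. The groups did not overlap in 12 members, 7 higher and 5 lower in IP, where 47.7% of all genes had no overlap, 25.1% higher and 22.7% lower.

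**Figure D1:**
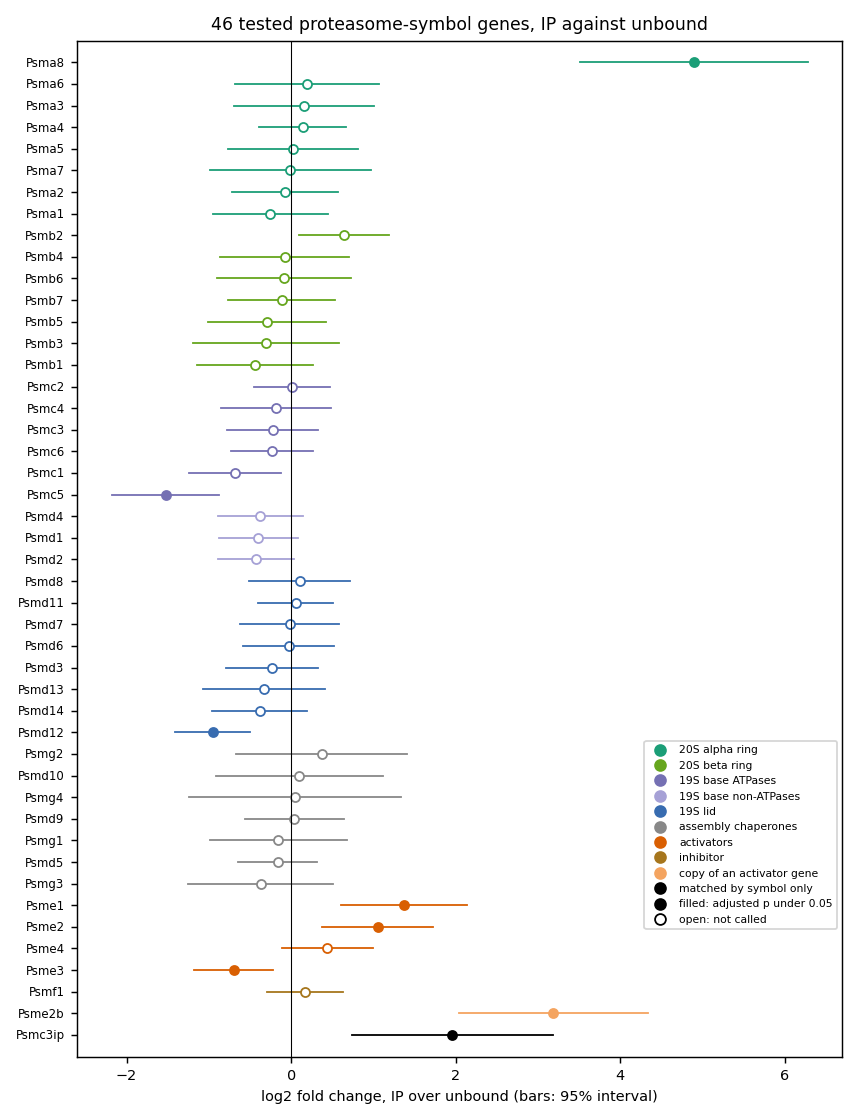
Log2 fold change of IP over unbound (x axis) for the 46 tested members (y axis), coloured by their part of the proteasome, with 95% intervals from the edgeR fit of 3 IP and 4 unbound libraries. Filled points passed an adjusted p of 0.05: 5 lie right of 0, from 1.05 for Psme2 to 4.89 for Psma8, and 3 lie left of it, with Psmc5 at -1.52.

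Unbound 2 stood apart from the other libraries in these genes. It held the highest level of the 7 libraries in 34 of 46 members, and the members summed to 5465 CPM there, against 3257 to 3311 in unbound 1, 3 and 4 and 2996 to 3735 in IP. Set against the median of unbound 1, 3 and 4, unbound 2 was higher in 43 of 46 members, with a median log2 ratio of 0.91, while the median over all genes tested was -0.01. Exon length moved with this ratio. Over all genes it was 0.47 in the shortest 5204 genes (up to 3172 bases of exon) and -0.41 in the longest 5202, and 31 of the 46 members fall among the shortest. The ratio in those 31 members was 0.96, above the 0.47 of all genes of that length range. In unbound 2, 34.6% of records were alignments to more than 1 place, against 17.6% to 24.5% in unbound 1, 3 and 4 and 33% to 39.6% in IP. Records that could not be given to 1 gene moved with the groups, at 1.43% to 1.63% in IP and 7.26% to 11.5% in unbound, and their part in the fold changes was not tested. The part of length, alignment or RNA quality in the members' fold changes was not tested. Calls and fold changes below that turn on unbound 2 are given with and without it, while levels per kilobase are given with all libraries only. Without unbound 2 the members' counts were 7 higher and 5 lower, against 23.3% and 20.9% of 17398 genes, and their median log2 fold change was 0.19. Without IP 1 there were 3 members higher and 2 lower, against 16% and 10.4% of all genes, and without IP 2 again 3 and 2, against 15.2% and 9.51%. Psmc3ip, Psme2 and Psme3 are the calls lost in both. Within index ACAGTG 2 members were higher and 1 lower (12.4% and 9.34% of all genes), with the replicate block 5 and 2 (17.9% and 14.8%), and without IP 4 and unbound 2 together 11 and 4 (22.7% and 21.9%).

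**Figure D2:**
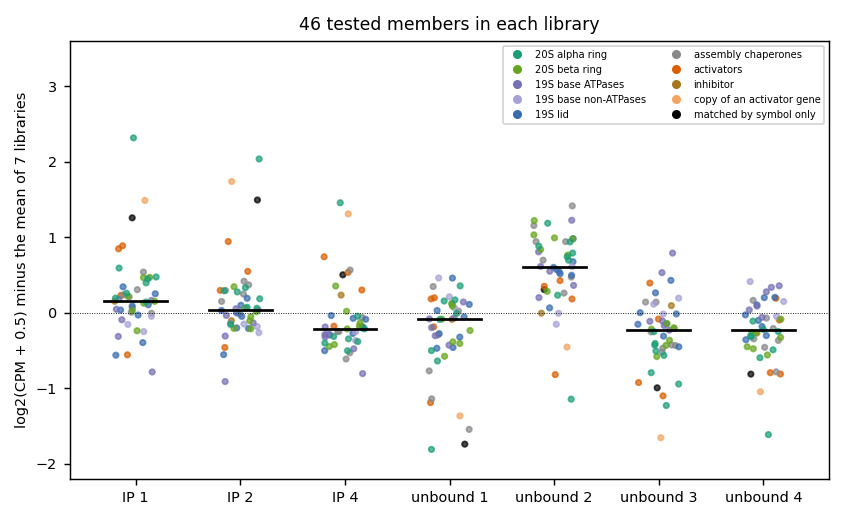
Level of the 46 tested members in each library (x axis) as log2(CPM + 0.5) minus the gene's mean over the 7 libraries (y axis), coloured by part of the proteasome, with the median of each library as a bar. The bar of unbound 2 stands at 0.60, while the other 6 lie between -0.24 and 0.16.

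**Figure D3:**
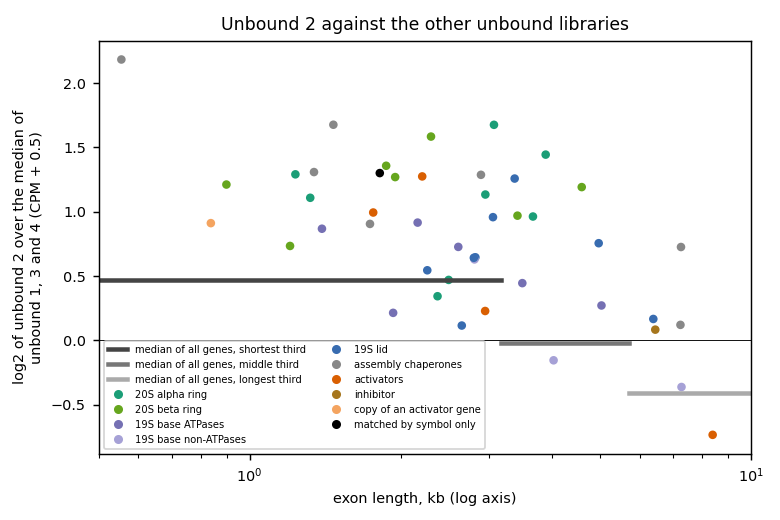
Log2 ratio of unbound 2 to the median of unbound 1, 3 and 4 (y axis) against exon length (x axis, log scale) for the 46 tested members, with bars for the medians of all genes in 3 length ranges. Members have a median ratio of 0.96 up to 3172 bases, 0.96 in the middle range and 0.10 in the longest. The bars fall from 0.47 over -0.02 to -0.41 with length.

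In the core particle, none of the 14 ordinary subunits passed the test, where 39.4% of all genes did. Without unbound 2, Psma3 and Psmb2 passed as higher (2 of 14, where 23.3% of all genes were higher). Without IP 4 and unbound 2 together, 4 of the 14 passed as higher, where 22.7% of all genes did. The 7 alpha subunits Psma1 to Psma7, which form the outer rings and gate the channel, had log2 fold changes from -0.25 (Psma1) to 0.19 (Psma6). Psma6 measured 215, 174 and 109 CPM in IP 1, 2 and 4 and 182, 231, 73.7 and 94 CPM in unbound 1 to 4. Psma7 measured 204, 178 and 103 CPM in IP and 104, 334, 109 and 104 CPM in unbound, with a log2 fold change of -0.01 ± 0.44 (SE). Psma1, the lowest of the alpha subunits by fold change, measured 58.3, 45.7 and 40 CPM in IP and 50.6, 94.4, 42.7 and 41.1 CPM in unbound. In all 3 genes the groups overlap and unbound 2 is the highest library.

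Of the beta subunits, Psmb5, Psmb6 and Psmb7 carry the active sites, cutting after hydrophobic, acidic and basic residues in this order. Psmb5 measured 42.3, 46.5 and 50.7 CPM in IP and 42.4, 99, 45.2 and 41.6 CPM in unbound. Psmb6 measured 100.4, 89.8 and 76 CPM in IP and 57.6, 177, 74.1 and 68.6 CPM in unbound. Psmb7 measured 135, 125 and 107 CPM in IP and 94.9, 211, 107 and 117 CPM in unbound. Each has 1 unbound library, unbound 2, far above the others, and the groups overlap. Their log2 fold changes were -0.30 ± 0.32, -0.09 ± 0.37 and -0.11 ± 0.29 (SE), with 95% intervals from -1.01 to 0.42, -0.90 to 0.73 and -0.76 to 0.53. Without unbound 2 they were 0.11, 0.41 and 0.20 and still did not pass (edgeR adjusted p = 0.651, 0.106 and 0.39).

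Among the structural beta subunits Psmb2 was the only one whose groups did not overlap. It measured 147, 135 and 135 CPM in IP and 79.6, 129, 70.6 and 77.3 CPM in unbound, with a log2 fold change of 0.64 ± 0.25 (SE, edgeR adjusted p = 0.0634). It passed without unbound 2 (0.87, edgeR adjusted p = 0.0023). Leaving out any other single library it did not pass (edgeR adjusted p between 0.101 and 0.168), nor within index ACAGTG (0.414) or with the replicate block (0.173). Within index GTGAAA, where IP 4 is the only IP library, its log2 fold change was 0.89. With all libraries it passed with library size only (edgeR adjusted p = 0.0274), DESeq2 (adjusted p = 0.045) and limma voom (adjusted p = 0.0421). Psmb4, which helps close the beta ring, measured 189, 132 and 100.3 CPM in IP and 149, 245, 101 and 98.3 CPM in unbound, with the groups interleaved. Psmb1 had the lowest log2 fold change, -0.44 ± 0.32 (SE), at 94.4, 80.1 and 69 CPM in IP and 98.3, 184, 80.5 and 77 CPM in unbound. The core as a whole had no stable direction. With all libraries 9 of the 14 ordinary subunits had a log2 fold change below 0, with a median of -0.08. Without unbound 2, 13 of 14 were above 0 (median 0.27), and without IP 4, 9 of 14 were (median 0.08). Library size alone gave 10 of 14 above 0 (0.07), index GTGAAA 10 of 14 (0.11) and limma voom 7 of 14 (0.02).

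Psma8 behaved differently from the rest of the core. It encodes the alpha subunit that replaces Psma7 in the proteasome of male germ cells. It measured 9.54, 7.77 and 5.03 CPM in IP (715, 446 and 256 counts) and 0.0752, 0.412, 0.361 and 0.159 CPM in unbound (6, 24, 19 and 9 counts). Every IP library lies far above every unbound library. The log2 fold change was 4.89 ± 0.63 (SE, edgeR adjusted p = 0.000175). Psma8 passed the count filter through its IP libraries, so its presence among the tested genes is no independent support. Per kilobase of exon its mean level in IP was 2.99 CPM, against 52.7 CPM for Psma7. Psmb11, the beta subunit of the thymus, was not tested, with 1, 0 and 0 counts in IP and 1, 0, 11 and 2 in unbound.

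In the regulatory particle 2 of 17 subunits fell (11.8%, against 18.9% of all genes) and none rose. Of the 17, 14 had a log2 fold change below 0, with a median of -0.24, where 53.6% of all genes lay below 0 with a median of -0.10. Psmc5, 1 of the 6 ATPases of the base, fell furthest of all members. It lies on chromosome 11 from 106256154 to 106263120 (GRCm38, plus strand, protein coding). It measured 154, 141 and 152 CPM in IP and 294, 623, 461 and 341 CPM in unbound. The IP libraries lie close together and all below the lowest unbound library. The log2 fold change was -1.52 ± 0.30 (SE, edgeR adjusted p = 0.0024), and without unbound 2 it was -1.29 (edgeR adjusted p = 0.00108). The other ATPases differed less. Psmc1 had -0.68 ± 0.25 (SE, edgeR adjusted p = 0.0508), with no overlap between groups. It passed as lower with DESeq2, with a filter of at least 5 CPM in 3 libraries and without unbound 1, but not without unbound 2. Psmc2, Psmc3, Psmc4 and Psmc6 had values from -0.24 to 0.01. Psmc2, the highest of these, measured 85.1, 77.1 and 65.9 CPM in IP and 71.6, 86.5, 64 and 80 CPM in unbound.

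The 3 non-ATPases of the base, the scaffolds Psmd1 and Psmd2 and the ubiquitin receptor Psmd4, had log2 fold changes of -0.40, -0.42 and -0.38 with SE between 0.21 and 0.24, and none passed. Psmd2 measured 80.9, 75 and 73.9 CPM in IP and 124, 89.7, 97.5 and 99.98 CPM in unbound, without overlap. Psmd1 measured 121, 130 and 121 CPM in IP and 166, 129, 165 and 192 CPM in unbound, where unbound 2 is the lowest. Without unbound 2 both passed as lower (edgeR adjusted p = 0.0456 for Psmd2 and 0.0341 for Psmd1). Psmd4 measured 69.7, 63.4 and 55.7 CPM in IP and 75.4, 110.4, 71.2 and 69.7 CPM in unbound, and its groups meet at 69.7.

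In the lid, Psmd12 fell and 7 subunits did not pass. Psmd12, a scaffold of the lid, lies on chromosome 11 from 107479484 to 107504362 (GRCm38, plus strand). It measured 94.5, 95 and 98.5 CPM in IP and 192, 204, 188 and 161 CPM in unbound, with every IP library below every unbound library. The log2 fold change was -0.96 ± 0.21 (SE, edgeR adjusted p = 0.00444), and within index ACAGTG it missed the threshold at -1.06 (edgeR adjusted p = 0.0504). Psmd8, the highest of the lid by fold change, had 0.10 ± 0.28 (SE), at 87, 78.2 and 69.3 CPM in IP and 70.2, 111, 53.3 and 56.9 CPM in unbound. Psmd14, the deubiquitinase that strips ubiquitin from substrates, had -0.38 ± 0.26 (SE), and Psmd3, Psmd6, Psmd7, Psmd11 and Psmd13 lay between -0.33 and 0.06. Without unbound 2, 4 of the 17 fell, where 20.9% of all genes did. In that setting 10 of the 17 were below 0 and their median was -0.05, against -0.02 for all genes. No test compared the core with the regulatory particle.

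The activators moved in opposite directions. Psme1 and Psme2 encode the subunits of the 11S ring known as PA28 alpha and beta, which interferon induces, and both rose. The genes lie close together on chromosome 14, Psme1 from 55578123 to 55581529 on the plus strand and Psme2 from 55587441 to 55591113 on the minus strand (GRCm38, both protein coding). Psme1 measured 224, 233 and 203 CPM in IP and 52.8, 154, 63.5 and 69.6 CPM in unbound, a log2 fold change of 1.37 ± 0.35 (SE, edgeR adjusted p = 0.0103). Psme2 measured 89.3, 72.5 and 71.8 CPM in IP and 43.3, 56.1, 22.8 and 27.9 CPM in unbound, a log2 fold change of 1.05 ± 0.31 (SE, edgeR adjusted p = 0.0196). Neither gene's groups overlap, and unbound 2 is the highest unbound library in both. Without unbound 2 the values were 1.83 and 1.31 (edgeR adjusted p = 6.7e-05 and 0.00304). Psme2 lost its call without IP 1, IP 2 or unbound 4 (edgeR adjusted p = 0.0756, 0.0522 and 0.0547). Within index ACAGTG (2 IP and 2 unbound libraries) neither passed, with 1.14 and 0.70 (edgeR adjusted p = 0.173 and 0.155).

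Psme2b, the copy of Psme2, is on chromosome 11 from 48945354 to 48946190 (GRCm38, minus strand, annotated as protein coding). It measured 7.1, 8.54 and 6.21 CPM in IP and 0.551, 1.48, 0.361 and 0.812 CPM in unbound, a log2 fold change of 3.18 ± 0.52 (SE, edgeR adjusted p = 0.000854). Of the 50-base words in its longest GENCODE transcript, 69.3% also occur in transcripts of Psme2 or of another copy, and for Psme2 the share was 59.3%. Reads that align to more than 1 place were left out of the counts, so the levels of both genes rest on the part of the sequence that differs.

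Psme3 encodes PA28 gamma, the nuclear relative of the ring, and it fell. It measured 136, 146 and 177 CPM in IP and 230, 269, 263 and 229 CPM in unbound, a log2 fold change of -0.70 ± 0.22 (SE, edgeR adjusted p = 0.0265). All IP libraries lie below all unbound ones. The call was lost with the replicate number as a block, with library size only, within either index sequence, and without IP 1, IP 2 or unbound 3 (edgeR adjusted p between 0.0623 and 0.149), while the sign was the same in each. Psme4 encodes the large single-chain activator and had 58.1, 60.8 and 61.1 CPM in IP and 56.2, 27.8, 46.7 and 46.2 CPM in unbound. The groups did not overlap, but it did not pass (0.44 ± 0.25 (SE), edgeR adjusted p = 0.19), and of the 46 tested members it has the lowest ratio of unbound 2 to the median of the other unbound libraries, 0.596. Psmf1, an inhibitor of the core, measured 47.9, 40 and 50.8 CPM in IP and 40.5, 42.9, 46 and 35.7 CPM in unbound.

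**Figure D4:**
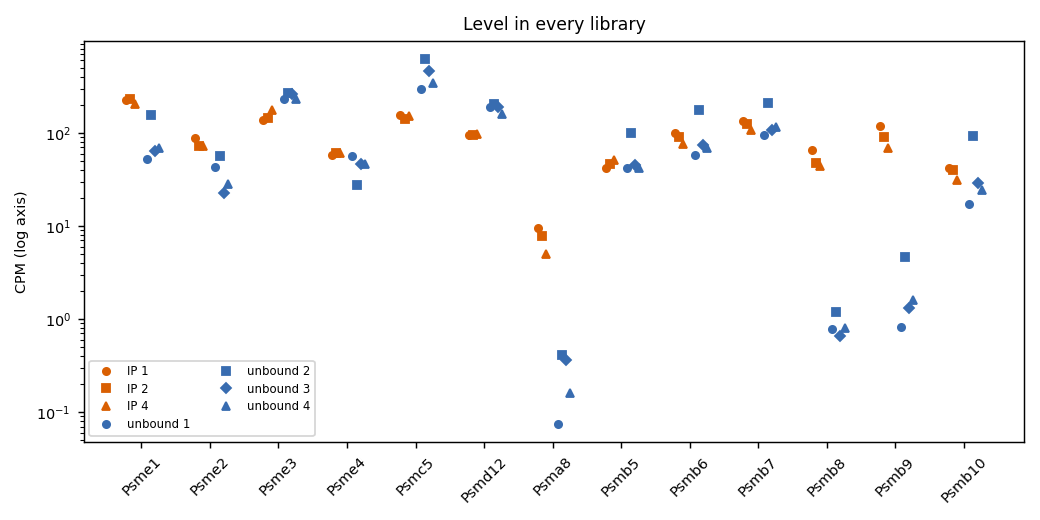
Level in CPM (y axis, log scale) of 13 genes in each of the 3 IP and 4 unbound libraries, 1 symbol per library. Psmb8 and Psmb9 lie above 40 CPM in IP and below 5 CPM in unbound, Psme1 and Psme2 lie higher in every IP library, Psmc5, Psmd12 and Psme3 lie lower, and Psmb5, Psmb6, Psmb7 and Psmb10 overlap.

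None of the 7 assembly chaperones passed, where 39.4% of all genes did, and unbound 2 was the highest library in all 7. Psmg1 to Psmg4 pair up to build the alpha ring, and Psmd5, Psmd9 and Psmd10 escort the ATPases. Their log2 fold changes ran from -0.37 (Psmg3) to 0.37 (Psmg2), with SE between 0.22 for Psmd5 and 0.58 for Psmg4. Psmd5 measured 54.5, 53.7 and 45.6 CPM in IP and 44.2, 65.1, 59.9 and 60.9 CPM in unbound. Psmg2 measured 8.48, 11.2 and 12.9 CPM in IP and 2.59, 14.1, 9.45 and 7.31 CPM in unbound, and Psmg3 measured 11, 8.5 and 6.37 CPM in IP and 12.1, 18.6, 6.66 and 7.31 CPM in unbound. The groups overlap in every chaperone, which in Psmd10 and Psmg4 rests on unbound 2. Psmd10 measured 38.4, 43.6 and 31.1 CPM in IP and 14.5, 73, 22.5 and 30.96 CPM in unbound. Psmg4 measured 8.78, 7.34 and 4.87 CPM in IP and 3.25, 16.5, 4.23 and 3.21 CPM in unbound. Neither passed without unbound 2, and both passed as higher without IP 4 and unbound 2 together, where 22.7% of all genes did. Psmc3ip, which is no proteasome gene, rose from 0.84 to 5.03 CPM in the unbound libraries to 10.2, 12.1 and 5.84 CPM in IP 1, 2 and 4 (1.96 ± 0.56 (SE), edgeR adjusted p = 0.0172). It shares 385 exon bases with Mlx on the opposite strand, and with the strand setting unknown these reads cannot be told apart. It lost its call without IP 1 or IP 2 (edgeR adjusted p = 0.0545 and 0.0782) and within index ACAGTG (0.15).

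The subunits of 1 complex did not have equal levels per kilobase in the counts. Per kilobase of exon (GENCODE M21), the 14 ordinary core subunits had a median of 41.6 CPM per kb in IP and 44.5 in unbound, and they ran from 16.3 (Psma1) to 135 (Psma6) in IP, an 8.27-fold range. In unbound they ran from 17.7 (Psma3) to 118 (Psma6). Unbound 2 was the highest of the 7 libraries in 12 of the 15 tested core members, and the unbound levels here include it. Medians, ranges and ranks per kb were not computed without unbound 2, so the order of the IP and unbound medians may turn on it. In the regulatory particle Psmd13 was the lowest in both groups, with 8.13 ± 1.14 CPM per kb in IP (SD, n = 3) and 10.2 ± 5 in unbound (SD, n = 4). Psmc5 was the highest, with 107 ± 5 and 308 ± 105, and no other member had so high a level per kb in unbound. Psma6 (135 ± 43.2), Psmb2 (115 ± 5.64), Psmc5 and Psme1 (99.6 ± 7.1) led the order in IP, and their values overlap within their SD except that Psmb2 lies above Psme1. The order in unbound was led by Psmc5, Psma6 (118 ± 59.9) and Psme3 (84.1 ± 7.27), and the spread of Psma6 covers Psme3. The order depends on the length used. With the longest transcript in place of all exons, the core ran from 26.98 (Psma3) to 162 (Psmb2) CPM per kb in IP, a 5.99-fold range, with Psma6 next at 159. In unbound Psmc5 (308) and Psma6 (139) still led, and Psme3 (93.1) stood at rank 8. Psmc5 was at rank 5 in IP. By all exons Psme1 stood at rank 4 of 47 in IP and 14 in unbound, and Psme2 at ranks 12 and 27. By the longest transcript these ranks were 4 and 20, and 8 and 22. Across the 46 tested members the rank correlation between the IP and unbound levels per kb was 0.946. The 2 sets of levels share gene length and annotation, and genes are not independent replicates. Reads that align to more than 1 place were left out, and the share of 50-base words found in other transcripts differs between subunits. It was 57.1% for Psmb5, 55.4% for Psma5, 22% for Psma3 and 15.8% for Psmd13, and 0% for Psma1, Psma6, Psmb2 and Psmc5. Its part in the levels per kb was not tested.

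**Figure D5:**
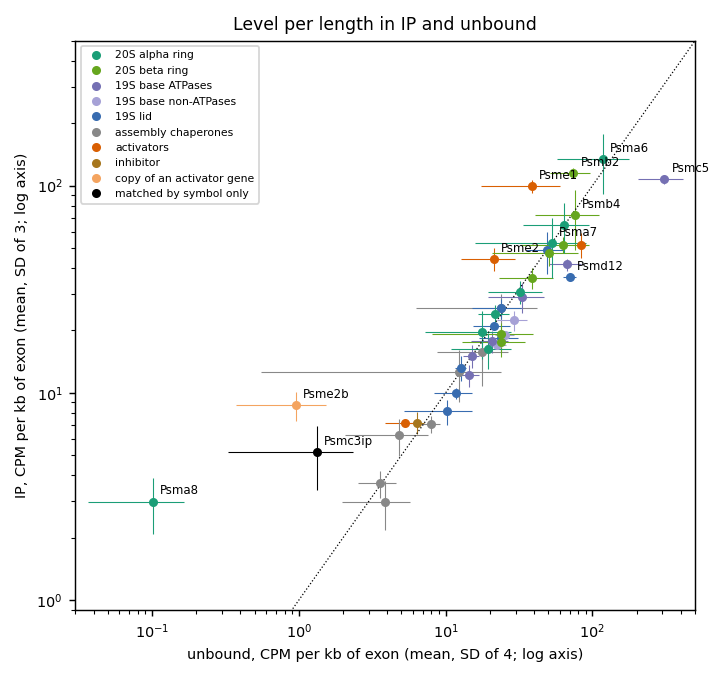
Mean level per kilobase of exon in IP (y axis, SD of 3 libraries) against unbound (x axis, SD of 4), both on log axes, for the 46 tested members, with equal levels as a dotted line. Psma8, Psme2b and Psmc3ip lie far above the line, Psme1 and Psme2 above it, and Psmc5 below it at 107 against 308 CPM per kb.

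The 3 immune subunits that stand in for the cutting subunits did not move together. Psmb8 replaces Psmb5, and measured 65.3, 47.9 and 43.9 CPM in IP and 0.777, 1.19, 0.664 and 0.794 CPM in unbound (5.93 ± 0.31 (SE), edgeR adjusted p = 1.02e-06). Psmb9 replaces Psmb6, and measured 119, 89.7 and 69.2 CPM in IP and 0.815, 4.59, 1.33 and 1.59 CPM in unbound (5.48 ± 0.56 (SE), edgeR adjusted p = 3.36e-05). Psmb10 replaces Psmb7, and measured 42.2, 39.9 and 31.2 CPM in IP and 17.4, 93.8, 28.8 and 24.1 CPM in unbound, which did not pass (-0.12 ± 0.50 (SE), edgeR adjusted p = 0.872). Without unbound 2 Psmb10 passed as higher (0.69, edgeR adjusted p = 0.0423).

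Set against its constitutive counterpart in the same library, Psmb8 had 1.54, 1.03 and 0.866 counts per count of Psmb5 in IP 1, 2 and 4, and between 0.012 and 0.0191 in unbound. Psmb9 had 1.18, 0.998 and 0.91 counts per count of Psmb6 in IP and between 0.0141 and 0.026 in unbound. Psmb10 had 0.311, 0.318 and 0.292 counts per count of Psmb7 in IP and 0.183, 0.445, 0.268 and 0.206 in unbound 1 to 4. These overlap through unbound 2 alone, and the ratios of unbound 1, 3 and 4 lie below every IP ratio. These ratios are not corrected for gene length. Psmb5 shares 57.1% of its 50-base words with other annotated transcripts, and what this does to its counts was not tested. The marker sums of endothelial cells, pericytes, microglia and astrocytes given above were higher in the same 3 libraries. The part of these cells in the values of Psmb8, Psmb9, Psme1 and Psme2 was not tested.

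Other genes of the pathway were taken from lists of partners and regulators. Of 17 proteasome partners in the files, 4 fell (23.5%, against 18.9% of all genes) and none rose (edgeR, 6 at an unadjusted p under 0.05). Uchl5, a deubiquitinase of the 19S particle, measured 43, 48.2 and 48.6 CPM in IP and 121, 154, 117 and 110 CPM in unbound (-1.43 ± 0.22 (SE), edgeR adjusted p = 0.000547). The others were Usp14, the other deubiquitinase that docks on the particle (-0.76 ± 0.24), the thioredoxin-like Txnl1 (-0.59 ± 0.21) and the shuttle factor Ubqln4 (-0.75 ± 0.22), with SE. Pomp, the maturation factor of the core, measured 369, 343 and 340 CPM in IP and 252, 275, 189 and 229 CPM in unbound, without overlap, and missed the threshold (0.57 ± 0.22 (SE), edgeR adjusted p = 0.0626). The count of 4 was 1 in several refits in which fewer of all genes fell. These were the replicate block (14.8% of all genes lower), index ACAGTG (9.34%), and leaving out IP 1 (10.4%) or IP 2 (9.51%). It was also 1 with library size only and without unbound 3, and it was 2 without unbound 4. Without unbound 2, 3 partners rose, where 23.3% of all genes did.

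The transcription factors that drive proteasome genes split. Nfe2l1, which raises proteasome genes when the protease is inhibited, fell from 435, 391, 503 and 434 CPM in unbound to 241, 202 and 216 CPM in IP (-1.004 ± 0.22 (SE), edgeR adjusted p = 0.00503, and 0.0893 within index ACAGTG). Its relative Nfe2l2, the regulator of the oxidative stress response, rose from 9.39, 20.9, 22.6 and 27.1 CPM to 192, 194 and 213 CPM (3.32 ± 0.33 (SE), edgeR adjusted p = 3.04e-05). The partner proteins Maff and Mafk and the glycanase Ngly1, which processes Nfe2l1, rose as well, by 3.02 ± 0.31, 1.85 ± 0.26 and 0.82 ± 0.20 on the log2 scale (SE). In all, 4 of 9 regulators rose and 1 fell, where 20.5% of all genes rose and 18.9% fell. Of the 6 genes for ubiquitin and its activating enzymes none passed (edgeR, 1 at an unadjusted p under 0.05). Without unbound 2, 2 of them rose, where 23.3% of all genes did. Ubb, a polyubiquitin gene, had the smallest p, at -0.90 ± 0.40 (SE, edgeR adjusted p = 0.099). It passed as lower with the index sequence as a covariate (edgeR adjusted p = 0.0353). Uba1, the main activating enzyme, measured 195, 230 and 264 CPM in IP and 181, 170, 217 and 262 CPM in unbound. Of the 10 genes for the unfolding ATPase p97 and its cofactors none passed (0 at an unadjusted p under 0.05). Without unbound 2, 1 of these 10 rose, where 23.3% of all genes did. With all libraries Faf1 was at -0.47 ± 0.22 (SE, edgeR adjusted p = 0.107) and Ubxn4 at -0.07 ± 0.21 (SE). DESeq2 and limma voom called none of the ubiquitin or p97 genes either.

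The promoters of the members were searched for 3 short motifs, since the members are known to share regulators. RefSeq promoter sequences (GRCm38.p6, 250 bases before the start to 50 after it) were at hand for 39 members with 42 starts. Psma8, Psmb1, Psmb2, Psmb7, Psmc3, Psmd3, Psmd7 and Psmg2 had none in the table. The motif TGACNNNGC, the core of the element bound by Nfe2l1 with small Maf proteins, was found on either strand in 6 of the 42 promoters (14.3%), against 12.4% of all 32851 promoters and 14.1% of those of genes tested. CCAAT was found in 14 (33.3%), against 37.4% and 37.2%. CCGGAA, the core of the ETS factor site, was found in 22 (52.4%), against 14.9% of all promoters and 23.2% of those of genes tested. A match is a description and no binding site. Matches of different motifs may overlap. Among the members that changed, CCGGAA was found for the fallers Psmc5, Psmd12 and Psme3 and for the riser Psmc3ip. Psmd12 also held TGACNNNGC, and Psme3 and Psmc3ip also held CCAAT. None of the 3 motifs was found for the risers Psme1, Psme2 and Psme2b. The window searched for Psme1 lies inside the gene as GENCODE annotates it, so sequence before that start was not searched. No test compared them.

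Stretches upstream of the start are shown for the cutting subunits Psmb5 and Psmb6, which hold TGACNNNGC, for the fallers Psmc5 and Psme3, and for the risers Psme1 and Psme2. None of the bases shown lies in a GENCODE M21 exon, though the Psme1 stretch lies inside the gene as GENCODE annotates it, in an intron. They read 5′ to 3′ on the gene's strand, and capitals mark TGACNNNGC or CCGGAA on either strand. The positions are chr14:54618023-54618142 (minus), chr11:70525237-70525356 (plus), chr11:106256080-106256153 (plus), chr11:101316093-101316212 (plus), chr14:55578249-55578359 (plus) and chr14:55591114-55591233 (minus), in the order below.
Psmb5: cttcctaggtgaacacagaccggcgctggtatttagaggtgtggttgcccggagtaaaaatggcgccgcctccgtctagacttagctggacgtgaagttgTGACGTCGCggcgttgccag
Psmb6: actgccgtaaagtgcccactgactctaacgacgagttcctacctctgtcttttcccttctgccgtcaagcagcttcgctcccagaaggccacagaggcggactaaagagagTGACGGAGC
Psmc5: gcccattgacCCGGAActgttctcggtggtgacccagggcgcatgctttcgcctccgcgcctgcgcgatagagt
Psme3: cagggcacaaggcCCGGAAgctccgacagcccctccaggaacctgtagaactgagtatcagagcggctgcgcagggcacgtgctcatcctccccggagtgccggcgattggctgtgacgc
Psme1: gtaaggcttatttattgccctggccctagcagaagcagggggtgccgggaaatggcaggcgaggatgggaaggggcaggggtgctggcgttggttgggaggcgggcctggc
Psme2: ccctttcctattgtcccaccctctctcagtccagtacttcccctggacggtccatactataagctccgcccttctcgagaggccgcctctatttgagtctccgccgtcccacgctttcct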

How the data were processed

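RNA from 3 IP and 4 unbound libraries was sequenced, and the authors deposited whole-number read counts per gene, 1 file a library. Per the submitters' processing notes, STAR 2.0.0e, HTSeq and the mm10 build were used. For the strand setting and the gene annotation, the labels are silent. HTSeq's summary lines were kept out of library sizes: 11.3% to 18.6% of records lay in no gene, 1.43% to 1.63% in IP and 7.26% to 11.5% in unbound were ambiguous and 17.6% to 39.6% aligned to more than 1 place. Groups and replicate numbers come from the sample titles.

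Genes were filtered with filterByExpr and fitted across all genes with edgeR 4.0.16 (TMM, quasi-likelihood test, R 4.3.3), IP against unbound, with Benjamini-Hochberg adjustment and a threshold of 0.05. DESeq2 1.42.0 and limma 3.58.1 (voom) were alternatives, beside other scalings and filters, the index sequence, the replicate number as a block and leaving out each library. Tested on simulated data for this comparison (17374 genes, 200 of them changed), the fit called 64% of genes changed 4-fold and 6% of those changed 2-fold. Of its 74 calls 4 were false. No 2 libraries agreed within counting noise. Gene lengths and positions come from GENCODE M21 (GRCm38), promoters from RefSeq. Values in every library are given for the catalytic subunits, the activators and, in each role group, the members of highest and lowest fold change and highest mean CPM. Of each pathway list they are given for the gene of smallest p, the gene of highest mean CPM and called genes against the list's majority, and for all immune subunits. Psmb2, Psmc1, Psmd1, Psmd2, Psmd4 and other genes named beyond this rule were chosen after their values were seen. The members and lists were chosen with earlier results of these data known.

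Same-numbered IP and unbound libraries deviated together with correlations of -0.0271, 0.0423 and 0.158. With 3 IP and 4 unbound libraries, these values cannot show whether the numbers pair the libraries. The main fit did not use the numbers, and the replicate block did.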

Additional observations from a re-analysis of the deposited data

Results flagged for a closer look

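Among 29 genes whose 4 unbound libraries were examined, 7 had 1 library far from the other 3 by Dixon's criterion at the 95% level (the gap to the nearest library over the whole range), and in all 7 it was unbound 2. Chance alone sets off this criterion in about 1 in 20 groups. Psmb5 measured 98.96 CPM there, against 41.6 to 45.2 CPM in the others, and Psmb6 measured 177 CPM against 57.6 to 74.1. Psma7 measured 334 CPM against 104 to 109, and Psmb2 measured 129 CPM against 70.6 to 79.6. Psmd4 measured 110.4 CPM against 69.7 to 75.4. Among the genes that interferon induces, Psme1 measured 154 CPM against 52.8 to 69.6, and Psmb10 measured 93.8 CPM against 17.4 to 28.8. The source of these high values was not tested.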

How the results depend on the processing

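Over the 38 named genes, 637 of 721 refitted values kept the direction and side of the threshold given above, 17 lost a call, 16 gained one and 51 changed sign, in 13 genes. In 47 of the 51 neither value was called. The other 4 passed with the new sign: Psmb10 without unbound 2 and, without IP 4 and unbound 2 together, Psmb6 (log2 fold change 0.52), Psma7 (0.86) and Psmb10 (0.81). In that last setting Psmb5 (0.047), Psmb7 (0.30), Psma1 (0.22), Psmb1 (0.038), Psmb4 (0.47), Psmg3 (0.17), Uba1 (-0.048) and Ubxn4 (0.022) also changed sign, 11 members were higher and the member median was 0.28. Over single libraries left out, the ranges that crossed 0 were -0.42 to 0.11 for Psmb5, -0.27 to 0.41 for Psmb6, -0.25 to 0.20 for Psmb7, -0.38 to 0.69 for Psmb10, -0.41 to 0.10 for Psma1, -0.20 to 0.61 for Psma7, -0.34 to 0.27 for Psmb4, -0.065 to 0.11 for Psmc2 and -0.025 to 0.38 for Psmd8. Library size only turned Psmb6 (0.074), Psmb7 (0.028), Psmb10 (0.068), Psma7 (0.17), Psmb4 (0.064) and Ubxn4 (0.037). Limma voom turned Psmb6 (0.055), Psmb10 (0.21) and Psma7 (0.14). Psma7 also turned with DESeq2 (0.012), RLE scaling (0.0062) and no filter (0.0011), and Psmc2 with the stricter filter (-0.035) and the index covariate (-0.028). Within index GTGAAA Psmb5 (0.24), Psmb6 (0.11), Psmb10 (0.26), Psmb4 (0.026) and Psmc2 (-0.11) turned, and within ACAGTG Psmd8 (-0.13) and Ubxn4 (0.033).

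Leaving out each library in turn gave 1751 to 3632 genes lower over all genes, 3 to 7 members higher, 2 to 5 lower, and a member median of -0.19 to 0.19. Within index ACAGTG, 2190 genes were higher and 1650 lower, with 2 members higher and 1 lower. The replicate block gave 3154 genes higher and 2618 lower, with 5 and 2 members. It lost the call of Psme3 (edgeR adjusted p = 0.118) and turned Psmb10 (0.15), Psma7 (0.017) and Psmc2 (-0.065). IP 1 correlated best with unbound 2 (0.199), and IP 2 and IP 4 with their own number. Library size alone moved the median of all genes by 0.10 on the log2 scale. With the longest transcript as length, the core median in IP was 50.2 CPM per kb. The motif TGACNNNGC followed by an A was found in 2 of the members' 42 promoters (4.76%), against 3.04% of all promoters and 2.68% of those of genes tested. The cause of these shifts was not tested. The simulation changed 200 genes, while 6950 of 17654 genes passed in the data. The adjusted threshold depends on that number, so the 6% of simulated 2-fold changes called does not give the share detectable here. A gene that did not pass is not shown to be unchanged.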
